A study of Mus musculus with 768 samples.

Results

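The genes described here are 5 cell-surface genes used to recognise pericytes or their neighbours, *Cspg4*, *Mcam*, *Esam*, *Anpep* and *Alcam*. They were taken by symbol as 5 of the 24490 endogenous genes in the tables. They were followed over every well with at least 10000 reads on genes other than the spike-ins, which left 727 of 768 wells. The cells came from mammary tumors of mice aged 14 weeks. In their strain, FVB/N-Tg(MMTVPyVT)634Mul/J, the MMTV promoter drives the polyoma middle T oncogene in mammary epithelium. All wells form a single group with no treated or control arm, sorted on the absence of EpCAM, CD45, CD31 and NG2 and sequenced by Smart-seq2, which reads whole transcripts of single cells. Each of 2 tumors filled a plate, which makes the tumor the replicate (n = 2), and tumor and plate cannot be told apart.

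Pericytes wrap the endothelial tube of small vessels, share its basement membrane and regulate its diameter and stability. Of the genes that mark them at the surface, *Cspg4* encodes NG2, a transmembrane chondroitin sulfate proteoglycan that binds collagen VI and is the standard antigen for sorting pericytes. *Mcam* encodes CD146, an immunoglobulin-superfamily adhesion molecule of pericytes, smooth muscle and endothelium. *Esam*, of the same superfamily, is best known from endothelial tight junctions and is also read in pericytes. *Anpep* encodes aminopeptidase N (CD13), a membrane peptidase found on pericytes and on many fibroblasts, and *Alcam* encodes CD166, an adhesion molecule of mesenchymal stromal and other cells. NG2 was removed as a protein by antibody, and the values here are RNA.

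Cells were grouped by a map built without these 5 genes. The map gave a vascular-like class of 541 cells (287 in tumor 1 and 254 in tumor 2) and a matrix-like class of 140 (75 and 65). Another cluster, the third by size, of 40 cells (10 and 30) carried 66.5% of the developmental-like markers and 52.9% of the matrix-like ones per cell, too close for a name, and 6 cells led by hemoglobin genes were not named either. The map was the one of lowest cost among 50 runs. Vascular-like and matrix-like clusters came apart in 39 of the runs, with 496 to 581 and 140 to 143 cells, whereas a developmental-like class was named in 10, so no result on it is given. The vascular-like class carried 93.1% of its 10 markers per cell on average (among them *Rgs5*, *Kcnj8* and *Abcc9*) and the matrix-like class 96.1% of its 12 (among them *Dcn* and *Lum*). At the same minimum, an RPKM of at least 1, matrix-like cells also carried 46.7% of the vascular-like markers. Vascular-like cells carried 27.9% of the matrix-like ones. No member was among the most variable genes that made the map, but the same cells made the classes and were compared over them, so a p-value between classes is no evidence that the classes exist. *Esam* also stood among the 10 leading genes of the vascular-like cluster. Median depth was 200261 and 191482 reads in vascular-like cells and 289809 and 238373 in matrix-like cells of the tumors. ERCC spike-ins, added in equal amount to each well, took a median 14.4% and 12.6% of the reads in vascular-like cells and 5.81% and 5.98% in matrix-like cells. Of 10 endothelial markers, *Pecam1* and *Cdh5* had 0 reads in the vascular-like cells of both tumors. *Flt1* was read in 70.4% and 79.1% of vascular-like and 33.3% and 26.2% of matrix-like cells. *Emcn* was read in 33.1% and 50.4% against 5.33% and 3.08%, and every other marker in at most 10.5% of vascular-like cells. At least 3 markers were read in 24 and 21 vascular-like cells. The summed endothelial level ran from 0 to 867 and 0 to 1430 RPKM in vascular-like cells (medians 40.7 and 81.5) and from 0 to 57.9 and 0 to 61.9 in matrix-like cells (medians 0), and the fold changes without these 24 and 21 cells stand beside the test. The 5 smooth muscle markers summed to a median of 1084 and 595 RPKM in vascular-like and 225 and 103 in matrix-like cells, and their part in the results was not tested.

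Of the genes named by the sort, only *Cspg4* was read in most cells. In tumor 1, 302 of 373 cells had a *Cspg4* read (81.0%, exact binomial 95% confidence interval 76.6 to 84.8%), and in tumor 2 it was 299 of 354 (84.5%, 80.3 to 88.1%). An RPKM of at least 10 was reached in 57.4% and 60.7% of the cells. *Epcam*, the epithelial adhesion gene, had a read in 19 cells of tumor 1 (5.09%) and 37 of tumor 2 (10.5%). *Pecam1*, which encodes CD31, was read in 0 of 373 tumor 1 cells (3 counts, the limit of a count of 0, would be 0.804%) and in 2 cells of tumor 2. *Ptprc*, which encodes CD45, was read in 0 and 1 cells. *Cspg4* RNA was thus read in cells gated as negative for its protein in both tumors, while RNA of the other gate genes was read in a minority. The labels do not give the staining of single wells. The intervals cover counting error only, since reads without molecular identifiers are not independent molecules.

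The genes lie apart from each other in build GRCm38.p6. *Cspg4* spans chr9:56865104-56899870 on the plus strand with 10 exons, *Mcam* chr9:44134658-44142727 on the plus strand with 16 exons, and *Esam* chr9:37528089-37538319 on the plus strand with 7 exons. *Anpep* spans chr7:79821803-79848210 on the minus strand with 21 exons, and *Alcam* chr16:52248996-52453081 on the minus strand with 16 exons. No exon of another annotated gene overlapped an exon of the 5, so counting without strand does not mix them with a neighbour. The 250 bases before the RefSeq start are shown for *Cspg4* and *Mcam*, which had higher levels in vascular-like cells in both tumors, and for *Anpep*, which did not. Capitals mark GGGCGG, the GC box bound by Sp-family factors, on either strand.

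*Cspg4*, chr9:56864854-56865103, plus strand: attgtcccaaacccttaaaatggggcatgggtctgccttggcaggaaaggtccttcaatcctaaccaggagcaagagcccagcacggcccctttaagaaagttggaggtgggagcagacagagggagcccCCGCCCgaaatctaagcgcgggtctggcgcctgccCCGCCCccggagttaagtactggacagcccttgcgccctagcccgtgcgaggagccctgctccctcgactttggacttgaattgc
*Mcam*, chr9:44134408-44134657, plus strand: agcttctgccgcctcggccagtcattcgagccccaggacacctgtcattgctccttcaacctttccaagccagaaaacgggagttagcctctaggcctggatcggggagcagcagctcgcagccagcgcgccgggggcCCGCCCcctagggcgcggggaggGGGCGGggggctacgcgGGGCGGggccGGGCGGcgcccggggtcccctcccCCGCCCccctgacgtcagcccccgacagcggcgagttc
*Anpep*, chr7:79848211-79848460, minus strand: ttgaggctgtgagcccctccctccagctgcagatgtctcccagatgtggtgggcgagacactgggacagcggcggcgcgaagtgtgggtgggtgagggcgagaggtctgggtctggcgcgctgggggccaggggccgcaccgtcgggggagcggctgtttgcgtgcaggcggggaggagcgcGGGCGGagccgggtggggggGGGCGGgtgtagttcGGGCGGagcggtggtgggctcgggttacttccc

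The *Cspg4* window held 2 GC boxes, that of *Mcam* 5 and that of *Anpep* 3, none overlapping another, and 32.9% of 27025 RefSeq promoters of this length held at least 1. Their GC content was 60.4%, 73.6% and 72.8%, against a median of 52% over all promoters. None of the 3 windows held CCAAT (34.5% of promoters), TATAAA (12.97%), GTGGGAA, the core bound by RBPJ of the Notch pathway (5.41%), CATTCC, the core bound by TEAD factors (12.6%), or CCGGAAGT of ETS factors (2.93%), on either strand. *Esam* had no entry among the promoters. The GC box was thus found before *Cspg4* and *Mcam* and before *Anpep* alike.

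*Cspg4* was read in vascular-like and matrix-like cells, at a higher level in the former. Per cell, its RPKM in vascular-like cells ran from 0 to 395 with a median of 26.8 in tumor 1, and from 0 to 196 with a median of 43.5 in tumor 2. In matrix-like cells it ran from 0 to 46.4 (median 1.05) and from 0 to 102 (median 6.28). The ranges over cells overlapped, while the tumor means did not: mean log2(RPKM + 1) was 3.96 and 4.60 in vascular-like cells and 1.84 and 2.60 in matrix-like cells, a difference of 2.06 ± 0.09 (SD, n = 2 tumors). Summed over cells, *Cspg4* took 352 and 478 CPM (its reads scaled to a common total of endogenous reads) in vascular-like cells and 65.7 and 143 in matrix-like cells, 5.35-fold and 3.35-fold higher. Every cell was then thinned to 50000 reads so that depth was equal, which left out 16 and 19 vascular-like and 2 and 0 matrix-like cells. A *Cspg4* read was then present in 78.2% and 86.0% of vascular-like cells and in 53.4% and 63.1% of matrix-like cells, and before thinning in 83.3% and 89.8% against 73.3% and 80.0%.

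*Mcam* was the most abundant of the 5 genes in vascular-like cells. Over all 727 wells it ranked 73 by mean RPKM among the 17235 genes with a read. Its RPKM in vascular-like cells ran from 0 to 2688 (median 619) in tumor 1 and from 0 to 2420 (median 637) in tumor 2. In matrix-like cells it ran from 0 to 522 (median 1.74) and from 0 to 483 (median 1.66). The quartiles did not overlap, since the lower quartile of vascular-like cells was 325 and 310 and the upper quartile of matrix-like cells 26.4 and 31.0. Summed over cells, *Mcam* took 2115 and 2250 CPM in vascular-like cells and 97.3 and 141 in matrix-like cells. An *Mcam* read remained after thinning in 98.9% and 98.7% of vascular-like cells and in 49.3% and 38.5% of matrix-like cells, and before thinning it was present in 97.2% and 96.5% against 70.7% and 63.1%. A few matrix-like cells, 4 of 75 and 7 of 65, had an *Mcam* RPKM of at least 100, as did 264 of 287 and 225 of 254 vascular-like cells. *Rgs5*, a pericyte gene, was read in all 4 and all 7, and in 66 of 71 and 48 of 58 of the other matrix-like cells, and a doublet caller marked 0 of these 4 and 7 cells.

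*Esam* separated the classes most by level. In vascular-like cells its RPKM ran from 0 to 1358 (median 253) and from 0 to 1145 (median 248). In matrix-like cells the median and the upper quartile were 0 in both tumors, with a highest cell of 34.4 and 143. Summed over cells, *Esam* took 673 and 686 CPM in vascular-like cells and 1.56 and 6.60 in matrix-like cells. Those matrix values rested on 33 and 108 reads, of which a single cell held 66.7% and 62.0%. After thinning, 87.5% and 88.1% of vascular-like cells and 4.11% and 9.23% of matrix-like cells had a read, and before thinning it was 88.5% and 85.4% against 12 of 75 and 12 of 65 cells. Among vascular-like cells with an *Esam* read, 40 of 254 and 17 of 217 (15.7% and 7.83%) had no read of any of the 10 endothelial markers. The others carried a read of some marker. As given above, *Pecam1* and *Cdh5* had no read in any vascular-like cell, while *Flt1* was read in 70.4% and 79.1% of that class. For *Emcn* it was 33.1% and 50.4%.

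*Anpep* had no higher level in vascular-like cells. In vascular-like cells its RPKM ran from 0 to 143 (median 4.91) and from 0 to 208 (median 4.26). In matrix-like cells it ran from 0 to 134 (median 20.2) and from 0 to 111 (median 12.3). The mean log2(RPKM + 1) was 2.51 and 2.55 in vascular-like cells and 3.97 and 3.35 in matrix-like cells, lower in the vascular-like class of both tumors by a mean of 1.13 ± 0.47 (SD, n = 2 tumors). The shares after thinning ran the same way, 52.4% and 54.0% against 82.2% and 69.2%, as did those before it, 56.8% and 59.8% against 89.3% and 76.9%. The summed reads differed less, with 69.3 and 77.5 CPM in vascular-like cells and 85.2 and 89.4 in matrix-like cells.

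*Alcam* was read in 11 of 373 cells of tumor 1 and 28 of 354 of tumor 2, with no cell at an RPKM of 100. Its mean RPKM over all wells was 0.724. A read was present before thinning in 6 of 287 and 9 of 254 vascular-like cells and in 5 of 75 and 14 of 65 matrix-like cells. After thinning to 50000 reads the intervals of the classes overlapped in tumor 1 (1.85%, 0.602 to 4.25%, against 2.74%, 0.334 to 9.55%) and did not in tumor 2 (2.98%, 1.21 to 6.04%, against 15.4%, 7.63 to 26.5%). At these counts a difference common to both tumors was not detectable. In matrix-like cells a single cell held 41.7% and 40.8% of the *Alcam* reads.

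**Figure D1:**
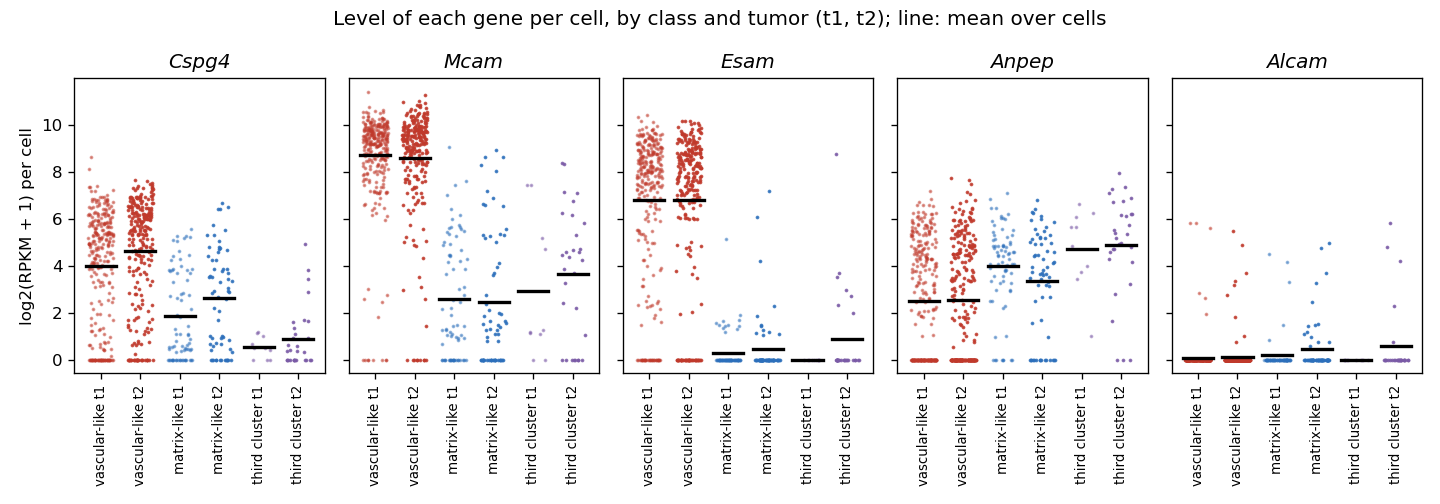
Level of each gene per cell as log2(RPKM + 1), by class (vascular-like, matrix-like, the third cluster, unnamed) and tumor (t1, t2). Points are cells and black lines are means over cells. *Mcam* means of 8.70 and 8.59 in vascular-like cells stand above 2.59 and 2.45 in matrix-like cells, while *Anpep* means are lower in vascular-like cells.

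On the RPKM scale, which divides by gene length, the order in vascular-like cells was *Mcam* (mean log2(RPKM + 1) 8.64 ± 0.07, SD over 2 tumors), *Esam* (6.79 ± 0.01), *Cspg4* (4.28 ± 0.45), *Anpep* (2.53 ± 0.03) and *Alcam* (0.10 ± 0.01), and each step was larger than the spread between tumors. In matrix-like cells the order depended on the average taken. By mean log2(RPKM + 1), *Anpep* came first (3.66 ± 0.44), followed by *Mcam* (2.52 ± 0.10) and *Cspg4* (2.22 ± 0.54), which did not differ beyond their spread. By mean RPKM, where the few cells of high *Mcam* weigh more, *Mcam* was at 26.1 and 42.0 in the tumors, *Anpep* at 26.2 and 21.8 and *Cspg4* at 7.37 and 14.7, so that *Mcam* stood above *Cspg4* in both. By mean log2(RPKM + 1), *Esam* (0.38 ± 0.12) and *Alcam* (0.32 ± 0.18) did not differ beyond their spread. The third cluster, with 10 and 30 cells, had *Anpep* at 4.72 and 4.88, *Mcam* at 2.94 and 3.64, and *Cspg4* at 0.54 and 0.90. *Esam* had 0 reads in its 10 tumor 1 cells (limit of a count of 0, 30% of cells) and a level of 0.86 in tumor 2.

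**Figure D2:**
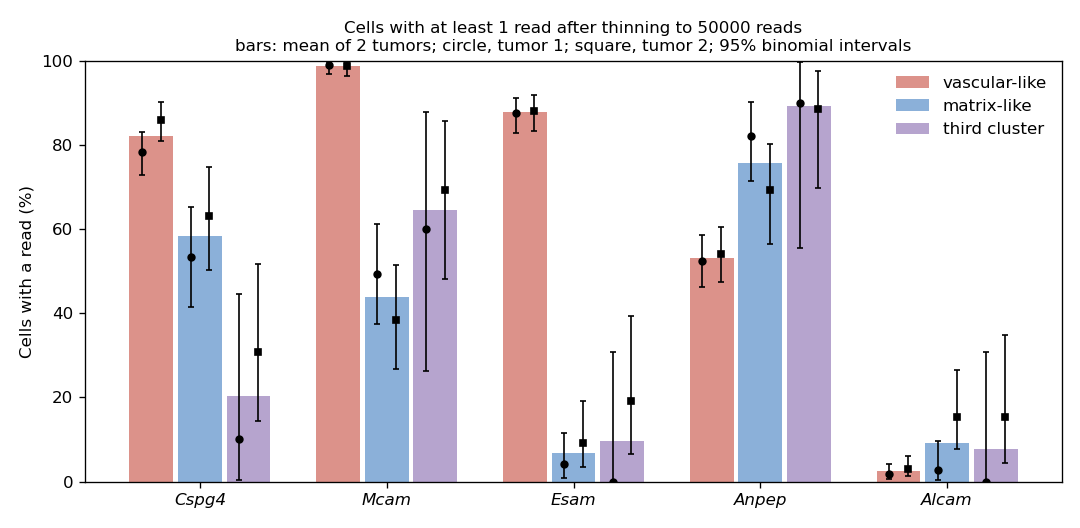
Percent of cells with at least 1 read of each gene after every cell was thinned to 50000 reads, by class and in the third cluster, unnamed. Bars are means of 2 tumors, circles tumor 1, squares tumor 2, with exact 95% binomial intervals. *Cspg4* is read in 53.4% and 63.1% of matrix-like cells, while *Esam* is read in 4.11% and 9.23%.

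Most vascular-like cells carried reads of several of these genes at once. After thinning, *Cspg4*, *Mcam* and *Esam* were all read in 190 of 271 vascular-like cells of tumor 1 (70.1%) and 179 of 235 of tumor 2 (76.2%). In matrix-like cells all of them were read in 1 of 73 and 1 of 65 after thinning, and in 10 of 75 and 6 of 65 before it. The commonest pattern in vascular-like cells was all of these plus *Anpep*, with 105 and 98 cells, followed by the same genes without *Anpep*, with 84 and 77 cells. In matrix-like cells it differed between the tumors, with *Cspg4*, *Mcam* and *Anpep* in 17 of 73 cells of tumor 1 and *Cspg4* with *Anpep* in 14 of 65 of tumor 2. The mean number of the 5 genes read per cell was 3.19 and 3.30 in vascular-like cells and 1.92 and 1.95 in matrix-like cells.

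Vascular-like cells with and without a *Cspg4* read were compared for reads of *Esam* and *Anpep*. At 50000 reads *Esam* was read in 89.6% against 79.7% of these cells in tumor 1 and in 89.1% against 81.8% in tumor 2, and *Anpep* in 55.2% against 42.4% and in 55.9% against 42.4%. The cells without a *Cspg4* read numbered 59 and 33. In tumor 2 the difference depended on the thinning. At 20000 reads *Esam* was at 83.6% against 82.5% and *Anpep* at 40.1% against 47.5%, the other way, and at 100000 reads *Anpep* was at 61.8% against 61.9%. Since *Mcam* and *Esam* were read in nearly all vascular-like cells, the count of cells with both genes of a pair cannot lie far from the count if they were independent, and says little about these pairs. For *Cspg4* and *Esam* it was 190 cells against 185.4 in tumor 1 and 180 against 177.9 in tumor 2. In matrix-like cells the largest pair count, *Cspg4* with *Anpep*, was 33 against 32.05 and 31 against 28.4, and *Cspg4* with *Mcam* was 20 against 19.2 in tumor 1 and 20 against 15.8 in tumor 2.

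**Figure D3:**
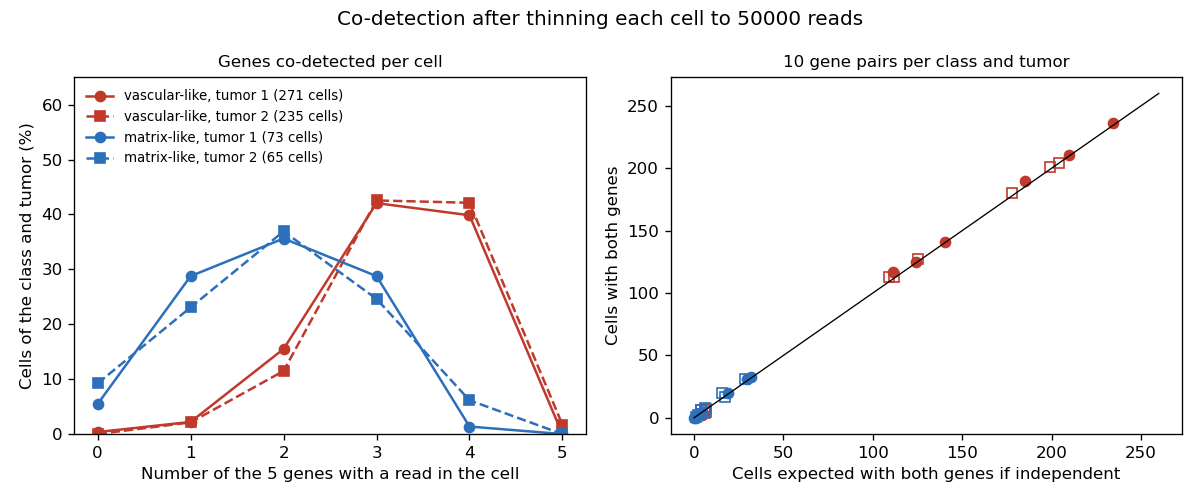
Left, percent of vascular-like (red) and matrix-like (blue) cells by the number of the 5 genes read, after thinning to 50000 reads. Right, for each of 10 gene pairs, class and tumor, the cells with both genes (vertical) against the count if the genes were independent (horizontal), with the line of equality. Vascular-like cells peak at 3 and 4 genes and matrix-like cells at 2, and pairs of genes read in nearly all cells can only lie near the line.

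Levels were also compared from cell to cell. Over the 287 and 254 vascular-like cells, Pearson's r of log2(RPKM + 1) was 0.37 and 0.43 for *Cspg4* with *Mcam*, 0.46 and 0.39 for *Mcam* with *Esam*, and 0.24 and 0.28 for *Cspg4* with *Esam*. For *Cspg4* with *Anpep* it was 0.02 and 0.11. In the 75 and 65 matrix-like cells *Cspg4* with *Mcam* gave 0.15 and 0.36, and *Mcam* with *Esam* gave 0.05 and -0.09, where only 12 and 12 cells had an *Esam* read. These are descriptions over cells that share a plate, and depth moves all genes of a well. Vascular-like cells without a *Cspg4* read (48 and 26) had a median of 165153 and 167051 reads, against 204500 and 193714 in those with a read. Their mean *Mcam* level was 7.23 and 6.65 against 8.99 and 8.81, and 81.3% and 73.1% had an *Esam* read against 90.0% and 86.8%. The part of depth in this was not tested.

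*Mcam*, *Esam* and *Cspg4* were all higher in vascular-like than in matrix-like cells when the reads were summed per tumor and class, and *Anpep* was not called. The test was edgeR's quasi-likelihood test on these 4 libraries, over the 11710 genes whose mean RPKM reached 1. Each SE was derived from the test, as the absolute log2 difference divided by the square root of its F statistic. With the Benjamini-Hochberg adjusted p at 0.05, 838 genes were called higher in vascular-like cells (7.16% of those tested) and 1132 lower (9.67%). *Mcam* was higher by 3.89 on the log2 scale (SE 0.23, adjusted p = 0.00067), *Esam* by 7.11 (SE 0.70, adjusted p = 0.0024) and *Cspg4* by 1.69 (SE 0.39, adjusted p = 0.039), each in 2 of 2 tumors. *Anpep* differed by -0.55 (SE 0.17, adjusted p = 0.091), lower in 2 of 2 tumors. With the tumor as a block 996 genes were called higher (8.51%) and 1346 lower (11.5%), and no member's call changed. *Alcam* was below the expression minimum, and with the minimum at a mean RPKM of 0.5 its value was -1.47 (SE 0.62, adjusted p = 0.19).

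The calls of *Esam* and *Cspg4* depended on which libraries shared the estimate of the spread. With the 2 libraries of the third cluster added to the fit, 274 genes were called higher (2.34%) and 405 lower (3.46%). *Mcam* was then still called (adjusted p = 0.0067), while *Esam* (adjusted p = 0.051) and *Cspg4* (adjusted p = 0.16) were not, at log2 differences of 7.09 and 1.69. With a map that holds a developmental-like class of 29 cells, *Mcam* (adjusted p = 0.0065) and *Esam* (adjusted p = 0.019) were called and *Cspg4* was not (adjusted p = 0.18). These fits were added after the data were seen. Where ERCC totals set the library size, the median of all genes moved from 0.04 to -0.74, and 4.71% of all genes were called higher and 37% lower. On that scale *Mcam* was at 3.11 and *Esam* at 6.34, both called, *Cspg4* at 0.92 was not (adjusted p = 0.091), and *Anpep* at -1.34 was called lower (adjusted p = 0.0052). Without the 45 vascular-like cells that had at least 3 endothelial markers, *Mcam* was at 3.87, *Esam* at 7.09 and *Cspg4* at 1.66, all called.

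**Figure D4:**
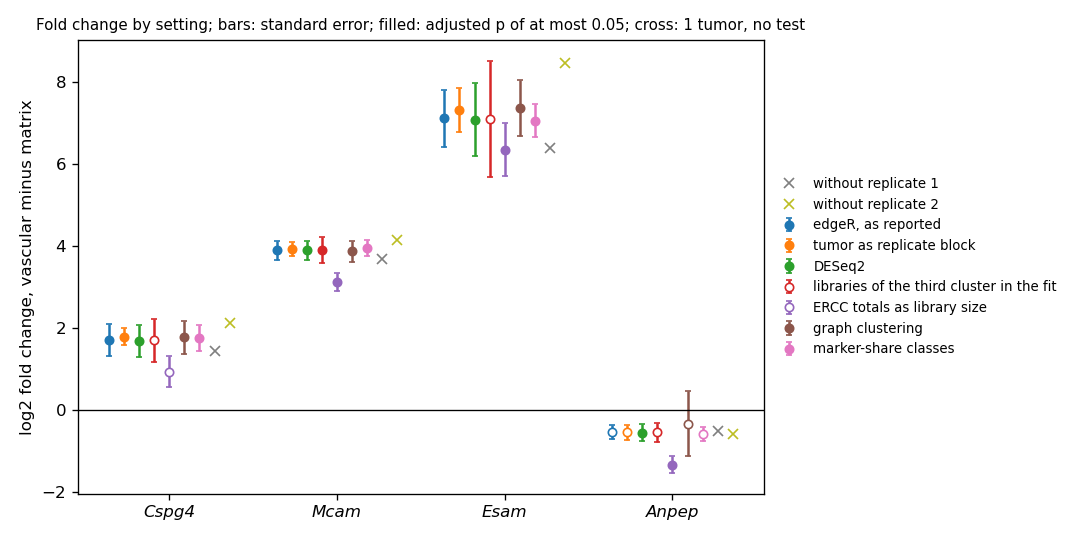
Log2 fold change of *Cspg4*, *Mcam*, *Esam* and *Anpep*, vascular-like minus matrix-like, in edgeR as reported and under 8 alternatives. Bars are standard errors, derived for edgeR from the F statistic of the test. Filled points have an adjusted p of at most 0.05, and crosses are single tumors without a test. *Mcam* is filled under every tested setting shown, and *Esam* and *Cspg4* are open with the libraries of the third cluster in the fit. *Cspg4* is also open with ERCC totals, *Anpep* is filled only with DESeq2 and with ERCC totals, and no sign changes.

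On the map used, cycling cells did not form a cluster of their own, whereas 16 of the 50 map runs held a cycling class of 37 to 43 cells. Graph clustering placed 43 cells of the vascular-like class (24 and 19) in a cycling cluster, and these were compared with the rest of the class, a comparison added after seeing the map. A *Cspg4* read was present in 23 of 24 and 17 of 19 of them, and an *Mcam* read in 24 and 18. In edgeR, with matrix-like libraries in the fit, 203 genes were called higher (1.73%) and 91 lower (0.777%) and no member was. *Cspg4* was at 0.27 (SE 0.38, adjusted p = 0.77), *Mcam* at 0.05 (SE 0.21), *Esam* at -0.12 (SE 0.52) and *Anpep* at -1.52 (SE 0.82, adjusted p = 0.39). With the tumor as a block it was 113 (0.965%) and 41 genes (0.35%), and again no member. With ERCC totals, where 16.9% of all genes were called higher and 1.5% lower, *Mcam* was called higher (0.80, adjusted p = 0.047). The *Anpep* value rested on tumor 2, with -3.87 there and -0.58 in tumor 1.

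Genes whose levels ran most like each member were sought over all 373 and 354 cells and then over the vascular-like cells alone, as the mean of the r in each tumor among the genes of a mean RPKM of at least 1. Over all cells *Mcam* ran most like *Rgs5* (0.79), *Abcc9* (0.76) and *Notch3* (0.76), and *Esam* like *Rgs5* (0.78), *Higd1b* (0.76) and *Abcc9* (0.74). *Rgs5*, *Abcc9*, *Notch3* and *Higd1b* are genes by which pericytes are known and were among the markers that named the class. *Cspg4* ran most like *Cd248* (0.53), which encodes endosialin of pericytes and activated fibroblasts, *Mcam* (0.52) and the collagen gene *Col5a3* (0.48). *Anpep* had no close partner, with *Ltbp3*, *Igfbp5* and *Il33* at 0.26, 0.25 and 0.25, and neither had *Alcam*, with *Vav3*, *Ltbp2* and *Rpusd1* at 0.24, 0.22 and 0.21. Within vascular-like cells, where the split from matrix-like cells plays no role, *Mcam* ran most like *Col4a2* (0.67) and *Col4a1* (0.63), the basement membrane collagen IV chains, and *Cd248* (0.58). *Esam* ran most like *Ptp4a3* (0.55), *Itga7* (0.50) and *Rgs5* (0.50), and *Cspg4* like *Ttyh2* (0.44), *Cd248* (0.43) and *Mcam* (0.40). The leading values for *Anpep* were *Cox4i2* (0.24), *Sept4* (0.24) and *Vtn* (0.23). For *Alcam*, read in 6 and 9 of these cells, they were *F2rl1* (0.50 in tumor 1 and 0.24 in tumor 2), *Kcnn4* (0.51 and 0.14) and *Unc5c* (0.15 and 0.44), which differed widely between the tumors.

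Related genes gave the setting for these values. Unlike the members, they were not kept out of the genes that could make the map, so they are no independent setting. Of 15 tested pericyte surface genes outside the members, 7 rose in vascular-like cells and 2 fell, with a median log2 difference of 1.32 against 0.04 over all genes tested. *Enpep*, which encodes aminopeptidase A, rose by 5.93 (adjusted p = 0.00063), the laminin receptor subunit *Itga7* by 6.10 (adjusted p = 0.00022) and *Bcam*, a laminin-binding adhesion molecule, by 7.88 (adjusted p = 0.0012). *Itga7* took 400 and 327 CPM in vascular-like and 4.25 and 4.34 in matrix-like cells. *Pdgfrb*, the receptor through which endothelial PDGF-BB recruits pericytes, took 2748 and 2830 against 928 and 887 and rose by 1.32 (adjusted p = 0.0029), but with ERCC totals it was at 0.52 and not called (adjusted p = 0.050). The genes that fell were *Tek*, the angiopoietin receptor best known from endothelium (-4.35, adjusted p = 0.0072), and *Nt5e*, which encodes CD73 (-3.85, adjusted p = 0.023). *Itgb1* was not called (0.69, adjusted p = 0.054), was called with the tumor as a block (adjusted p = 0.020) and was at -0.11 with ERCC totals. With the block 10 of the 15 rose and 2 fell, and with ERCC totals 5 rose and 2 fell. With the libraries of the third cluster in the fit, 4 rose and 0 fell, and *Pdgfrb* (adjusted p = 0.28), *Tek* (0.16) and *Nt5e* (0.29) were not called.

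Of 13 fibroblast surface genes, 1 rose and 9 fell, with a median of -5.87, with the third cluster in the fit 0 rose and 5 fell, and with ERCC totals 0 rose and 11 fell. *Pdpn*, the podoplanin gene, fell from 510 and 430 CPM in matrix-like cells to 3.38 and 1.69 (adjusted p = 0.00055). *Ly6c1* fell by 7.13 (adjusted p = 0.0020) and *Lrrc15*, known from cancer-associated fibroblasts, by 6.83 (adjusted p = 0.0054). *Il1r1*, the interleukin-1 receptor gene, was the one that rose (0.62, adjusted p = 0.050) and was at -0.17 with ERCC totals. With the third cluster in the fit, *Lrrc15* (adjusted p = 0.061) and *Il1r1* (0.84) were not called.

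Among 15 other immunoglobulin-superfamily adhesion genes, the family of *Mcam*, *Esam* and *Alcam*, 1 rose (*Bcam*) and 5 fell, with a median of -1.08. With the third cluster in the fit 1 rose and 3 fell, with the block 1 rose and 7 fell, and with ERCC totals 1 rose and 11 fell. The neural adhesion molecule *Ncam1* fell by 4.96 (adjusted p = 0.00022), *Clmp* fell by 4.69 (adjusted p = 0.00026) and *Vcam1*, a ligand of leukocyte integrins, fell by 4.17 (adjusted p = 0.00081, and 0.057 with the third cluster in the fit). *Jam3* took 100.1 and 93.0 CPM in vascular-like against 57.3 and 58.3 in matrix-like cells and was not called (adjusted p = 0.16). Of 8 M1 aminopeptidases beside *Anpep*, 2 rose and 0 fell, with a median of 0.02, and the counts were equal with the third cluster in the fit. They were *Enpep*, with 265 and 243 CPM against 4.30 and 2.39, and *2010111I01Rik* (2.28, adjusted p = 0.0036), with 342 and 327 against 43.2 and 68.5. *Anpep*, with 69.3 and 77.5 against 85.2 and 89.4, was not among the genes that rose. With ERCC totals 2 of the 8 rose and 4 fell, in a fit that called 4.71% of all genes higher and 37% lower.

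Of 15 partners and proteases of NG2, 1 rose and 4 fell, with a median of -0.29. With the third cluster in the fit 1 rose and 2 fell, with the block 2 rose and 5 fell, and with ERCC totals 1 rose and 10 fell. *Pdgfa*, a growth factor that NG2 is known to bind, rose by 4.21 (adjusted p = 0.0034), with 227 and 230 CPM against 5.76 and 14.4. The collagen VI genes *Col6a1* and *Col6a2*, whose product NG2 binds, fell by 1.99 (adjusted p = 0.0022) and 1.76 (adjusted p = 0.0046). *Col6a1* took 2474 and 1879 CPM in vascular-like against 7285 and 6774 in matrix-like cells, and with the third cluster in the fit neither *Col6a1* (adjusted p = 0.053) nor *Col6a2* (0.094) was called. *Mmp16*, a membrane protease gene, fell by 5.94 (adjusted p = 0.0017).

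Of 17 enzymes that build or sulfate chondroitin chains such as that of NG2, 0 rose and 9 fell, with a median of -1.08, whereas with the third cluster in the fit 1 fell, with the block 1 rose and 9 fell, and with ERCC totals 0 rose and 13 fell. The gene that fell with the third cluster in the fit was *Csgalnact1*, which starts the chain (-3.92, adjusted p = 0.00084, and 0.0088 with the third cluster in the fit). The chain-extending gene *Chsy1* fell by 1.42 (adjusted p = 0.0098) in the reported fit and *Chsy3* fell by 2.02 (adjusted p = 0.015). *Chpf*, which takes part in extension, fell by 1.26 (adjusted p = 0.0062), and the sulfotransferase gene *Chst12* fell by 1.24 (adjusted p = 0.0089).

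Of 8 ligands and partners of MCAM, 2 rose and 3 fell, with a median of -0.96. With the third cluster in the fit 1 rose and 1 fell, with the block 2 rose and 5 fell, and with ERCC totals 1 rose and 5 fell. *Lama5*, a chain of laminins that MCAM binds, rose by 3.38 (adjusted p = 0.0062) from 1.51 and 2.45 CPM to 27.2 and 23.5, and *Pdgfrb* is the other. *Nrg1* fell by 5.62 (adjusted p = 0.019), the netrin-1 gene *Ntn1* by 4.15 (adjusted p = 0.0050) and *Lgals1*, the galectin-1 gene, by 1.00 (adjusted p = 0.0066), of which only *Ntn1* was called with the third cluster in the fit. The lists are small. Their counts in the reported fit stand beside the 7.16% and 9.67% of all genes called in each direction, those with the third cluster beside 2.34% and 3.46%, those with the block beside 8.51% and 11.5%, and those with ERCC totals beside 4.71% and 37%, with no test of the list.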

How the data were processed

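The authors aligned the single-end reads of each well with STAR (mm10 build) and assigned them to genes of RefSeq. The deposited counts are whole reads per gene without normalization, and the RPKM table, also deposited by the authors, divides them by gene model length and by the reads of the well, spike-ins included. Columns were joined to wells through their names, which left 0 columns aside. The 5 genes, the gene lists and the tests were chosen with earlier results of these data known.

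Kept wells had 10281 to 838772 (tumor 1) and 10476 to 1190516 (tumor 2) endogenous reads. Classes came from Rtsne 0.17 (lowest cost of 50 runs on 30 rounded principal components) and DBSCAN (eps 3.1, scikit-learn 1.9.0), named by fixed markers. A cluster with more markers of another class among its 10 leading genes stayed unnamed, a condition added after the clusters were seen. The components were rounded after a first computation was found to depend on the number of processor threads. That first map held a developmental-like class, and the map kept does not. Scrublet marked 7 doublets, which were kept. Counts summed per tumor and class were tested with edgeR 4.0.16 (TMM, glmQLFit, glmQLFTest, no covariate). On simulated counts the test called 12% of 50 genes changed by 1 on the log2 scale. It called 76% of those changed by 2, 80% by 3 and 98% by 4, with 3 false calls among 11706 genes. A gene that was not called can therefore still differ. DESeq2 1.42.0, the tumor as a block, other scalings, filters, classes and thinning depths were alternatives. A tumor gave 1 library to each class, so the libraries of 1 tumor are paired, and the deviations of vascular-like and matrix-like libraries correlated by 0.12. The study does not say whether the 2 tumors came from different mice. With 1 tumor left out no spread remains, so those values carry no test. Shares and levels are given as descriptions, and a permutation test of 2 tumors against 2 could not reach 0.05.

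Named genes were the members, the 3 genes most like each over all and over vascular-like cells, and of each list up to 3 called genes of largest change per direction and the 2 of highest mean RPKM. Promoters are from RefSeq (GRCm38.p6), where 4 of 5 members matched. The study's tests over single cells were not repeated.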

Additional observations from a re-analysis of the deposited data

Results flagged for a closer look

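Reads of these genes were also found in wells that enter no comparison. In the 41 wells with under 10000 endogenous reads, there were 22 *Cspg4* reads in 11 wells, 40 *Mcam* reads in 15, 20 *Esam* reads in 8 and 5 *Anpep* reads in 2, each above the 3 counts that a count of 0 allows. In the 46 cells of the clusters without a name, there were 72 *Cspg4* reads in 27 cells, 1147 *Mcam* reads in 33, 62 *Esam* reads in 8, 1646 *Anpep* reads in 37 and 123 *Alcam* reads in 5. With 2 tumors, no value could be looked at for a sample far from the others.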

How the results depend on the processing

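The vascular-like minus matrix-like fold changes of *Cspg4*, *Mcam*, *Esam* and *Anpep* kept their sign under every alternative run, while *Alcam* was fitted only with no filter (-1.44) and with the lower one (-1.47). *Mcam* was called under each tested one. *Cspg4* lost its call with ERCC totals (0.92), an adjusted p of 0.001 (1.69), the third cluster in the fit (1.69, and 1.80 with the block) and a map with a developmental-like class (1.70). *Esam* lost it at 0.001 (7.11) and with the third cluster (7.09, and 7.60 with the block). *Anpep* passed with DESeq2 (-0.57) and ERCC totals (-1.34). Genes called higher and lower were 1305 with DESeq2 (higher), 551 and 4327 with ERCC totals, 66 and 111 at 0.001, 540 and 701 with graph clustering, 274 and 405 with the third cluster (144 and 257 with the block) and 283 and 410 with the map that holds a developmental-like class. With the tumor as a replicate block, the pairing of libraries from the same tumor, 996 and 1346 genes were called and no call of the members tested changed. The fit of the 4 libraries only, and that with members allowed among the clustering genes (none ranked among them), are identical to the reported one. Without replicate 1 or without replicate 2 the fold changes ranged from 1.42 to 2.12 for *Cspg4*, 3.68 to 4.14 for *Mcam*, 6.38 to 8.45 for *Esam* and -0.60 to -0.53 for *Anpep*.

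Between cycling and other vascular-like cells, single tumors ranged from 0.27 to 0.29 for *Cspg4*, from -0.13 to 0.23 for *Mcam* (a change of sign), from -0.18 to -0.06 for *Esam* and from -3.87 to -0.58 for *Anpep*. With ERCC totals *Esam* changed sign to 0.64 and *Mcam* passed at 0.80. The block called 113 and 41 genes, DESeq2 703 and 732, and ERCC totals 1980 and 176.

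The vascular-like minus matrix-like difference in shares, as the mean of the tumors, kept its sign under each alternative. In tumor 1 alone *Alcam* at 20000 reads was at 0.42, against a mean of -0.88. For *Cspg4* (23.8 percentage points) it was 9.85 unthinned, 29.7 at 20000 reads, 20.8 at 100000, 25.6 at an RPKM of at least 1 and 25.9 at 5 reads. For *Mcam* (54.9) it was 30.0 unthinned, 62.6 at 20000, 41.8 at 100000 and 35.6 at an RPKM of at least 1, and for *Esam* (81.1) 69.7 both unthinned and at an RPKM of at least 1 and 85.3 with graph clustering. Single tumors ranged from 22.9 to 24.8 for *Cspg4*, 49.6 to 60.3 for *Mcam*, 78.9 to 83.3 for *Esam*, -29.8 to -15.2 for *Anpep* and -12.4 to -0.90 for *Alcam*. Level differences with a pseudocount of 0.1 were 2.64, 7.31, 8.80, -1.95 and -0.53 for *Cspg4*, *Mcam*, *Esam*, *Anpep* and *Alcam*. As log2 ratios of mean RPKM they were 4.27 for *Mcam*, 7.53 for *Esam*, -0.40 for *Anpep* and -0.93 for *Alcam*. On the log2(RPKM + 1) scale, single tumors gave 2.00 to 2.13 for *Cspg4*, 6.11 to 6.14 for *Mcam* and 6.34 to 6.50 for *Esam*. On that scale they gave -1.46 to -0.81 for *Anpep* and -0.34 to -0.10 for *Alcam*.

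*Cspg4*, *Mcam* and *Esam* were read together in 66.4% (20000 reads) and 79.5% (100000) of vascular-like cells, and in 0%, 4.74%, 11.3% (unthinned) and 8.51% (an RPKM of at least 1) of matrix-like cells. Single tumors gave 70.1% to 76.2% and 1.37% to 1.54%. The causes were not tested.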
